A study of Homo sapiens with 11 samples.

Results

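The genes described are 9 matrix metalloproteinases (MMP1, MMP2, MMP3, MMP9, MMP13, MMP14, MMP15, MMP16 and MMP24) and their inhibitor TIMP2, 10 of the 23167 genes counted by RNA-seq in MDA-MB-231 cells. They were picked by name, with the contrast of mH2A1.1 KD and WT cells already known, so their values in that contrast are a description and their calls are not evidence on the family. MMP14 was the tested member with the largest log2 fold change, except in the fits with a length and GC correction, where MMP1 was above it (0.36 and 0.30 in edgeR). Its mean level was 573 CPM ± 37.5 in WT and 957 CPM ± 268 in KD (SD, n = 2 each), both KD libraries lay above both WT libraries, and the 2 KD libraries differed from each other by more than the WT libraries did. TIMP2, the other abundant member, had almost the same level in the 4 libraries, MMP1, MMP15, MMP16 and MMP24 were low, and MMP2, MMP3, MMP9 and MMP13 were close to absent. In WT chromatin, mH2A1.1 peaks lay over the TSSs of MMP14, MMP15, TIMP2 and MMP9.

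MMPs are zinc-dependent proteases that cut extracellular matrix and cell surface proteins. They are made as inactive precursors and activated by removal of a propeptide, and TIMPs bind their active site. Most are secreted, whereas membrane-type MMPs sit on the cell surface, where MMP14 (also called MT1-MMP) degrades fibrillar collagen at invasive protrusions and, together with TIMP2, activates the MMP2 precursor. macroH2A1 is a histone H2A variant with a large globular domain, and mH2A1.1 is the splice isoform whose domain binds ADP-ribose.

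MDA-MB-231 is an established triple-negative breast cancer cell line. WT cells received the transfection reagent without any siRNA and KD cells received siRNA against mH2A1.1 at 11 nM, and both were collected at day 3. WT is thus not a control with a non-targeting siRNA, and which of the study's siRNAs was used for RNA-seq is not given in the sources used here. There were 2 RNA-seq libraries per group, and WT cells also gave 1 ChIP-seq library with an antibody to mH2A1.1 and 1 with an antibody to total mH2A1. The labels do not say that the libraries came from separate cultures, so p-values measure only the spread between these libraries, which may be technical.

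Counts on genes summed to between 2309549 and 9794674 per library, lowest in KD replicate 2. This library had 0 counts on chromosomes 22 and X and 30 on chromosome 21, and genes of these chromosomes were left out of the tests. No member lies on them. MACROH2A1, whose gene counts do not separate the isoforms, was at 385 and 394 CPM in WT and at 274 and 300 CPM in KD (log2 fold change -0.44, SE 0.173, edgeR adjusted p = 0.205). The markers fit the line in part. All 6 mesenchymal genes were detected in the 4 libraries (VIM, CD44, ZEB1, AXL, CAV1 and EGFR, from 120 to 4730 CPM), ESR1 and PGR were at 0, and of the 4 other luminal genes KRT19 reached 656 CPM in KD replicate 2. Of the fibroblast, endothelial and leukocyte markers with a row, the highest was PDGFRB at 11.3 CPM, and DCN was at 0.

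Levels are given in CPM, counts scaled to library size with TMM factors. MMP14 (ENSG00000157227, 14q, GRCh38 chromosome 14, 22836560 to 22849041, plus strand) was covered by 5196 counts in WT replicate 1, 4560 in WT replicate 2, 4065 in KD replicate 1 and 2427 in KD replicate 2. On the CPM scale these were 547, 600, 768 and 1150. The KD libraries were both above the WT libraries, KD replicate 2 by far the most. The log2 fold change was 0.74 (SE 0.233), above that of 93.0% of the 10963 genes tested. edgeR's quasi-likelihood test gave an unadjusted p of 0.016 and a Benjamini-Hochberg adjusted p of 0.194 over all genes tested, which missed the threshold of 0.1. With DESeq2, the tool of the study, the same counts gave 0.74 (SE 0.262) and an adjusted p of 0.0669, which passed it together with the limit of 1.5-fold.

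The size of the MMP14 difference depended on the library and on a correction. Against the WT mean, MMP14 was higher by 0.42 on the log2 scale in KD replicate 1 and by 1.00 in KD replicate 2. Without KD replicate 2 the log2 fold change was 0.43 and without KD replicate 1 it was 0.99. Fold changes in these libraries moved with the GC content of the exons, which was 58.7% for MMP14. The 1206 other tested genes within 2 percentage points of that GC content had a median log2 fold change of 0.42 (quartiles 0.18 and 0.64), and against the WT mean their median was 0.18 in KD replicate 1 and 0.67 in KD replicate 2. With smooth trends on exon length and GC content removed from each library, MMP14 kept its direction at 0.30 (SE 0.106, edgeR adjusted p = 0.128). In DESeq2 the same correction also gave 0.30, with an adjusted p of 0.197, so that the DESeq2 call was lost. The part of GC content and of KD replicate 2 in the MMP14 result was not tested beyond these values.

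**Figure D1:**
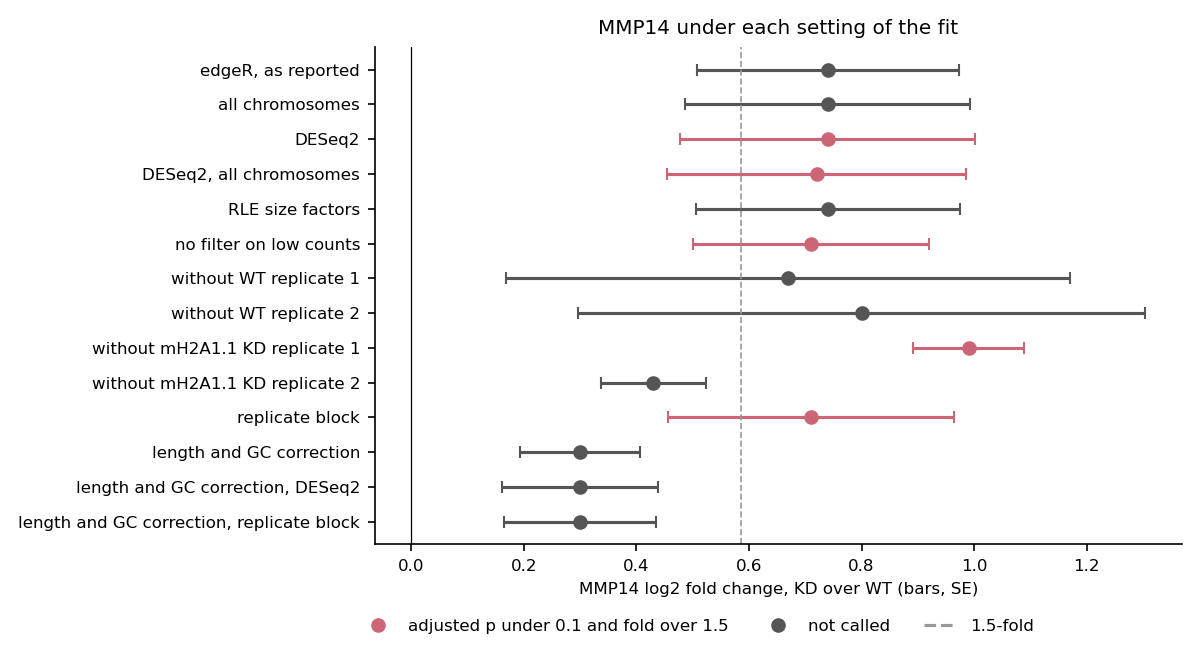
log2 fold change of MMP14 (x axis, KD over WT) with its SE under the edgeR fit given in the text and 13 other settings, with red points where the adjusted p was under 0.1 and the fold over 1.5. All points lie above 0, between 0.30 with the length and GC correction and 0.99 without KD replicate 1.

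At the MMP14 locus, 1 mH2A1.1 peak of 3000 bp (chr14:22836001-22839000) covered the TSS, from 559 bp before it to 2440 bp after it, which is 19.6% of the gene. No mH2A1 peak overlapped that peak, and the nearest mH2A1 peak ended 9560 bp before the TSS. The width equals 1 bin of the authors' peak calls, so the edges are known only to the bin. Of 605 genes with a WT level within a factor of 2 of that of MMP14, 54.7% had an mH2A1.1 peak within 500 bp of the TSS and 18% an mH2A1 peak.

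RefSeq promoters (GRCh38.p14) were at hand for 3 members, MMP14, MMP15 and MMP24, all membrane-type MMPs on the plus strand. They are shown because MMP14 and MMP15 have an mH2A1.1 peak over this stretch and MMP24 has one that stops before its TSS. The 250 bases before each RefSeq start are given 5′ to 3′, with GC boxes, the core site of SP1 and related factors (GGGCGG or its reverse complement), in capitals. They lie at chr14:22836335-22836584, chr16:58025504-58025753 and chr20:35226440-35226689.
MMP14: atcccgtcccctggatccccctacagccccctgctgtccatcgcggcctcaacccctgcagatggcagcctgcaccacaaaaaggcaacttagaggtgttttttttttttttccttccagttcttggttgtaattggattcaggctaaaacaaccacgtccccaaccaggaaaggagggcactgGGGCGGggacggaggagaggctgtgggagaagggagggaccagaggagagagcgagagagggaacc
MMP15: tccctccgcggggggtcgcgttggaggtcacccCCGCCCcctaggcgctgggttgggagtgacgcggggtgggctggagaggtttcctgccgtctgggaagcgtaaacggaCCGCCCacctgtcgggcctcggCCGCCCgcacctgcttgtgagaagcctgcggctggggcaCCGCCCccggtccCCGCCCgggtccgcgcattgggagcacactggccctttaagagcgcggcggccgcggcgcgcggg
MMP24: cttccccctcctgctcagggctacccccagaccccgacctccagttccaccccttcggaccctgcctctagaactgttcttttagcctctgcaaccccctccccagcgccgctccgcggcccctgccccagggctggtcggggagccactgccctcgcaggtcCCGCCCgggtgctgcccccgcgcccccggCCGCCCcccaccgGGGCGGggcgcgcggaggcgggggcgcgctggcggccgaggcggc
The MMP14 stretch held 1 GC box, MMP15 held 5 and MMP24 held 3, and their GC contents were 56.8%, 74.8% and 77.6%, beside a median of 58.0% over the 35116 promoters of the table. A GC box was found in 42.6% of these promoters, and 3 or more in 13.9%. Neither the AP-1 site TGANTCA, found in 6.57% of promoters, nor the TATA box TATAAA, found in 10.7%, matched on either strand in the 3 stretches.

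The other membrane-type members were expressed far below MMP14. Per kb of exon, the WT level was 124 CPM for MMP14, 1.72 for MMP15 (MT2-MMP), 1.31 for MMP24 (MT5-MMP) and 1.03 for MMP16 (MT3-MMP). MMP14 held 92.6% of all counts on 21 MMP genes in WT replicate 1 (95% Clopper-Pearson interval 91.9% to 93.2%) and 93.2% in WT replicate 2 (92.5% to 93.9%). In KD replicates 1 and 2 it held 94.2% (93.4% to 94.9%) and 95.5% (94.6% to 96.3%). These intervals cover counting error only. Among these 21 genes MMP14 was thus the dominant MMP transcript in each of the 4 libraries. MMP11 and MMP28 had no row and are not part of these shares.

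MMP15 (ENSG00000102996, chromosome 16, 58025754 to 58046901, plus strand) was at 6.52 and 8.02 CPM in WT and at 7.56 and 11.8 CPM in KD. The groups overlapped, and the log2 fold change was 0.34 (SE 0.311, edgeR adjusted p = 0.503). MMP24 (ENSG00000125966, chromosome 20, 35226690 to 35276998, plus strand) was at 5.58 and 5.92 CPM in WT and at 5.86 and 10.4 CPM in KD. Only KD replicate 2 stood apart, and the log2 fold change was 0.39 (SE 0.339, edgeR adjusted p = 0.48). Both genes are rich in GC (65.0% and 60.4% of exon bases), and with the length and GC correction their log2 fold changes turned to -0.11 and -0.02. Without KD replicate 1 their log2 fold changes were 0.70 and 0.85, in a fit where the single KD library is assumed to vary like the WT libraries.

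MMP16 (ENSG00000156103, chromosome 8, 88032011 to 88328025, minus strand), with the longest exons of the set at 12108 bases and the lowest GC content at 36.5%, was at 13.3 and 11.7 CPM in WT and at 11.5 and 8.51 CPM in KD. The KD values lay below the WT values, by a small margin in KD replicate 1, and the log2 fold change was -0.27 (SE 0.258, edgeR adjusted p = 0.519). The length and GC correction turned it to 0.23. In KD replicate 2 there were 18 counts for MMP16, 25 for MMP15 and 22 for MMP24.

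Among the secreted members, only MMP1 was expressed at a level that could be tested. MMP1 (ENSG00000196611, chromosome 11, 102789401 to 102798160, minus strand), the interstitial collagenase, was at 7.68 and 10.4 CPM in WT and at 10.8 and 8.98 CPM in KD. The groups overlapped, and the log2 fold change was 0.17 (SE 0.279, edgeR adjusted p = 0.714). Its sign was not stable, as it was -0.06 without WT replicate 1 and 0.38 without WT replicate 2. With the length and GC correction it was 0.36 (SE 0.244, edgeR adjusted p = 0.377).

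The other secreted members were at or near 0 in all libraries. MMP2 and MMP9, the gelatinases that cut basement membrane collagen, each had 5 and 2 counts in WT, with none in KD for MMP2 and 1 and 0 in KD for MMP9. MMP3 (stromelysin) had 1 and 1 counts in WT and MMP13 (a collagenase) 2 and 1, and both were at 0 in KD. A count of 0 allows up to 3 counts, which is 0.567 CPM in KD replicate 1 and 1.42 CPM in KD replicate 2, above the WT mean of each of the 4 genes (0.118 to 0.394 CPM). No fold change is therefore given, and a difference was not detectable at this depth.

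TIMP2 (ENSG00000035862, chromosome 17, 78852977 to 78925387, minus strand) was covered by 5588 counts in WT replicate 1, 4545 in WT replicate 2, 3307 in KD replicate 1 and 1242 in KD replicate 2. On the CPM scale these were 588, 598, 625 and 587, and the groups overlapped. The log2 fold change was 0.03 (SE 0.17, edgeR adjusted p = 0.918). Its exons have a GC content of 55.4%, where 1265 other tested genes had a median log2 fold change of 0.34, and with the length and GC correction TIMP2 was at -0.28 (SE 0.15, edgeR adjusted p = 0.274). Per kb of exon TIMP2 was at 95.5 CPM in WT, next below MMP14 among the members. The number of MMP14 counts for each TIMP2 count was 0.93 and 1.00 in WT and 1.23 and 1.95 in KD. This ratio within a library shows unequal change of the 2 genes and does not say which of them changed.

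**Figure D2:**
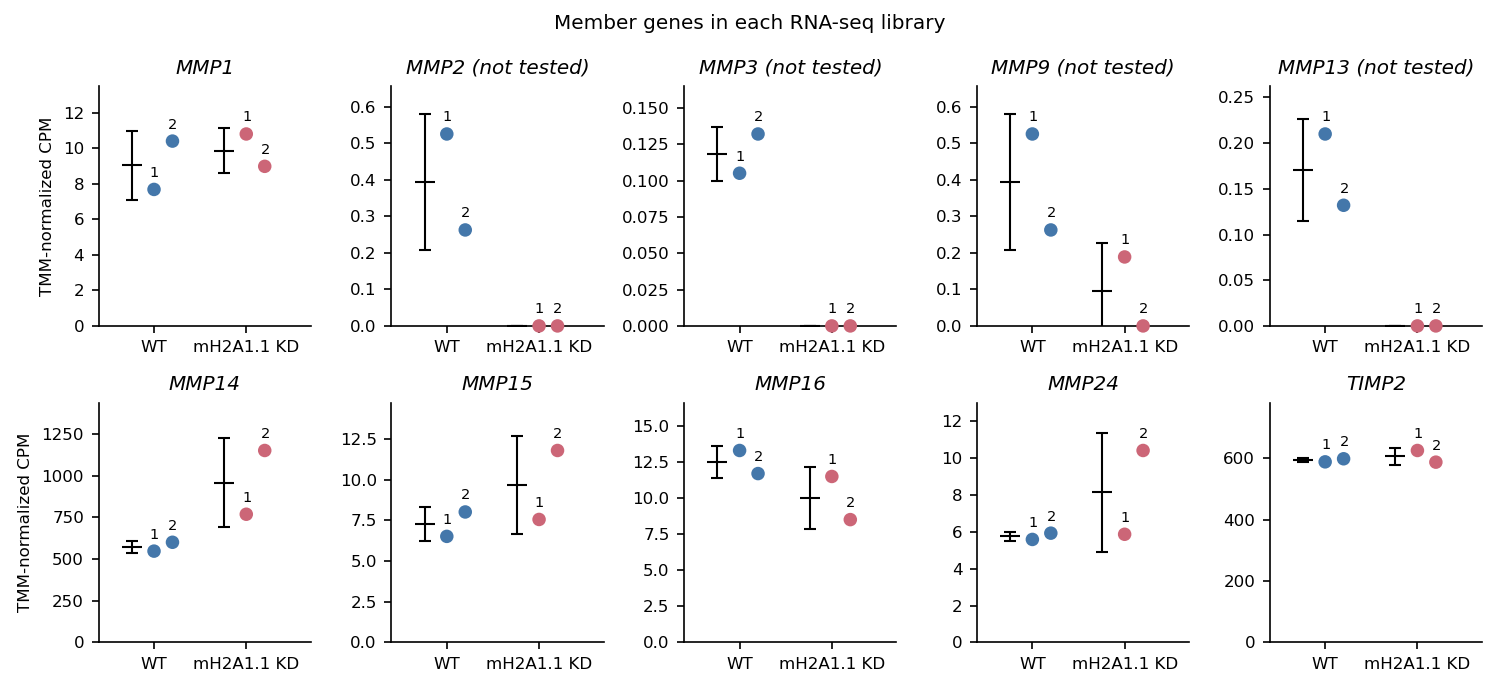
Level of each member (y axis, TMM-normalized CPM, from 0 and with its own scale per gene) in WT and mH2A1.1 KD libraries, with replicate numbers beside the points and the mean and SD (n = 2) at the left of each group. MMP14 is the only tested member whose KD libraries both lie above its WT libraries, and KD replicate 2 is the highest library for MMP14, MMP15 and MMP24.

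Of the 10 members, 6 passed the filter on low counts (MMP1, MMP14, MMP15, MMP16, MMP24 and TIMP2). edgeR called 0 of the 6, beside 0.0% of all 10963 genes tested, with 1 member (MMP14) and 2540 genes at an unadjusted p under 0.05. DESeq2 called 1, MMP14, of the 2 members with an adjusted p (MMP14 and TIMP2), beside 11.6% of 7987 genes called in either direction and 5.98% called higher. It gave no adjusted p to the other 4 tested members, which its filter on mean counts left out. Both KD libraries lay above both WT libraries for 1 tested member, MMP14, and for 32.5% of all genes tested, and below for 1, MMP16, and for 32.4%. The median log2 fold change of the 6 tested members was 0.26, beside 0.01 over all genes tested. With the length and GC correction the median of the members was 0.11, and that over all genes is not given.

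**Figure D3:**
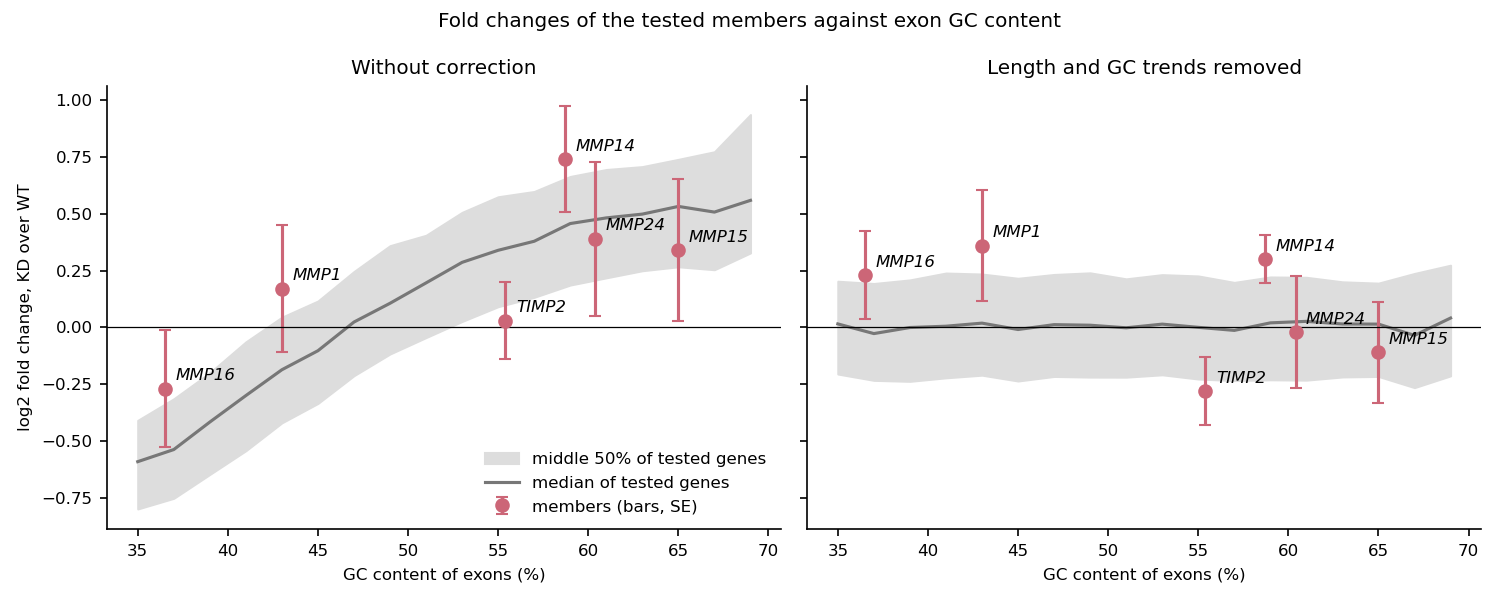
log2 fold change of the 6 tested members (points with SE) against the GC content of their exons (x axis, percent), over the median and middle 50% of all tested genes in bins of GC content, without (left) and with (right) removal of length and GC trends. On the left, MMP16 at 36.5% GC lies lowest (-0.27) and MMP14 at 58.7% highest (0.74), while on the right MMP1 is highest at 0.36, MMP14 is at 0.30 and TIMP2 is lowest at -0.28.

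Over the 10 members, 4 had an mH2A1.1 peak within 500 bp of the TSS (MMP9, MMP14, MMP15 and TIMP2), beside 37.8% of 23061 annotated genes. An mH2A1 peak lay there at 2 members, MMP9 and MMP24, beside 21.2% of annotated genes. There was 1 library per antibody, so these are presence or absence calls with no replicate error. The 4 peaks differed in width. That of MMP14 was 3000 bp, that of MMP15 45000 bp (chr16:57999001-58044000), that of TIMP2 54000 bp (chr17:78915001-78969000) and that of MMP9 also 54000 bp (chr20:45984001-46038000).

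The peaks covered expressed and unexpressed members. At MMP9, which had 7 WT counts in all, the mH2A1.1 peak and an mH2A1 peak of 66000 bp both contained the whole gene. At MMP15 the mH2A1.1 peak covered 86.3% of the gene, and mH2A1 peaks 27.9%. At TIMP2 the mH2A1.1 peaks covered 43.3% and mH2A1 peaks 33.1%, and the nearest mH2A1 peak to the TSS lay 4614 bp before it. The mH2A1.1 peaks over the TSSs of MMP15, TIMP2 and MMP9 overlapped an mH2A1 peak, for MMP15 and TIMP2 away from the TSS, whereas the MMP14 peak overlapped none.

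MMP24 and MMP2 had mH2A1.1 peaks away from the TSS. The peak upstream of MMP24 (chr20:35214001-35226000) ended 690 bp before the TSS, another covered most of the gene body (71.6% of the gene), and the bin over the TSS itself was an mH2A1 peak. In MMP2, whose annotated start belongs to a transcript far upstream, 2 mH2A1.1 peaks covered 7.69% of the gene and the nearest began 68301 bp after that start. In the same gene 3 mH2A1 peaks covered 20.5%, the widest of 18000 bp (chr16:55464001-55482000). The absence of a peak at the MMP2 TSS refers to the annotated start only. MMP1, MMP3, MMP13 and MMP16 had no peak of either antibody in the gene, and their nearest mH2A1.1 peaks were 78.2, 59.4, 46.7 and 256 kb from the TSS.

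**Figure D4:**
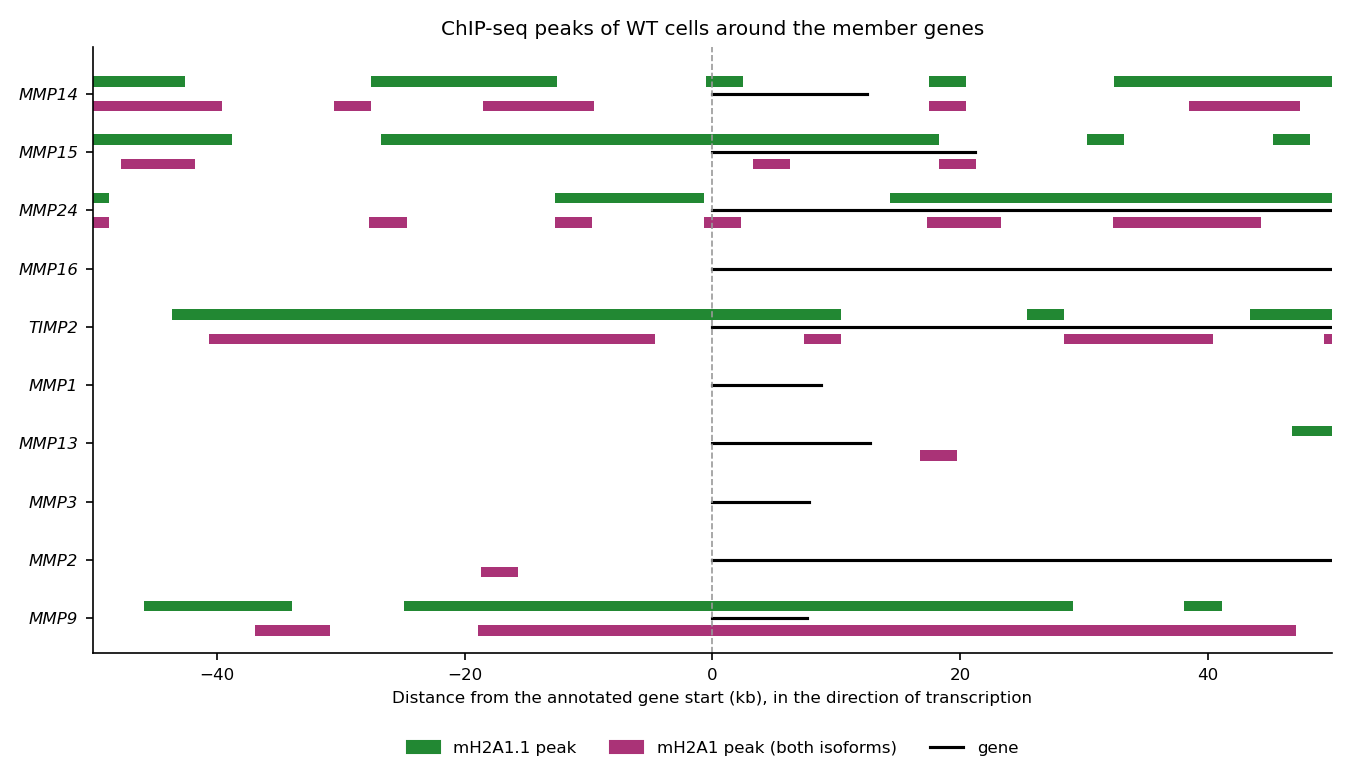
Peaks of mH2A1.1 (green) and total mH2A1 (purple) in WT cells around each member, by distance from the annotated gene start in kb in the direction of transcription, with the gene as a black line, all cut at 50 kb on each side. A 3000 bp mH2A1.1 peak sits on the start of MMP14, peaks of 45000 and 54000 bp cover the starts of MMP15, TIMP2 and MMP9, and MMP1, MMP3 and MMP16 have none in view.

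Genes that act with the members were taken from 7 lists. Of 104 listed genes with a row, 79 were tested. edgeR called 0 of them, with 22 at an unadjusted p under 0.05, beside 2540 of all 10963 genes tested. DESeq2 called 8 of the 66 that had an adjusted p (7 higher and 1 lower in KD), beside the 11.6% of all genes given above. With the length and GC correction edgeR called 7 of the 79, of which 4 were higher and 3 lower. Over all 10963 genes tested, the same fit called 589, of which 237 were higher and 352 lower. For each list the most abundant genes are named, and the genes that DESeq2 called are named as well, a choice made after their values were seen.

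Among the other MMPs, 12 genes had a row and 2 were tested, with log2 fold changes of 0.45 for MMP19 (SE 0.317) and 1.51 for MMP17 (MT4-MMP, SE 0.517, edgeR adjusted p = 0.194). Their median was 0.98, and 0.66 with the correction. MMP17 had 13 and 8 counts in WT and 13 and 12 in KD, which gave 1.37 and 1.05 CPM in WT and 2.46 and 5.67 CPM in KD. Of 8 inhibitors, 5 were tested, with a median of 0.10, which turned to -0.11 with the correction, and no call by either tool. TIMP3 and TIMP1 lie on chromosomes 22 and X, where KD replicate 2 holds no counts. TIMP3, which is bound to the matrix, was at 639 and 613 CPM in WT and 242 CPM in KD replicate 1, and TIMP1 at 205, 238 and 225 CPM, with no test because a single KD library remains.

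Of 14 genes that activate MMP14 or meet it at the cell surface, 12 were tested, with a median log2 fold change of 0.29, and 0.08 with the correction. ITGB1 (integrin beta 1) was at 1740 and 1720 CPM in WT and 1620 and 1260 CPM in KD, and CD44, a surface anchor of MMP14, at 1330, 1320, 1330 and 1410 CPM. FURIN, the convertase that removes the MMP14 propeptide, was outside the rule for names and is given for its role, at 80.9 and 95.6 CPM in WT and 109 and 174 CPM in KD (log2 fold change 0.67, SE 0.256, edgeR adjusted p = 0.2; 0.19 with the correction). DESeq2 called CD151, a tetraspanin, higher in KD, at 166 and 173 CPM in WT and 200 and 576 CPM in KD, a difference carried by KD replicate 2, and its log2 fold change of 1.19 fell to 0.60 with the correction, where edgeR did not call it. Of 14 genes of invadopodia and vesicle delivery with a row, 13 were tested, with a median of -0.38, and 0.01 with the correction. KIF5B, a kinesin heavy chain, was at 667 and 618 CPM in WT and 572 and 411 CPM in KD, and MSN (moesin, on chromosome X) at 1100, 1140 and 1280 CPM in the 3 libraries that cover it.

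Of 18 transcription factors known to act on MMP promoters, 16 were tested, with a median log2 fold change of 0.01, and -0.17 with the correction. FOSL1, an AP-1 subunit, was at 414 and 436 CPM in WT and 473 and 606 CPM in KD, and ETS1 at 292, 304, 347 and 254 CPM. DESeq2 called JUND higher in KD (39.4 and 41.3 CPM in WT, 75.6 and 130 CPM in KD) and ETV4 lower (58.4 and 63.6 CPM in WT, 35.5 and 34 CPM in KD), and both were also called by edgeR with the correction, at 0.68 and -1.17, along with FOS (-0.86) and EGR1 (-0.74).

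Of 18 matrix proteins that MMPs cut or bind, 13 were tested. Their median log2 fold change was 0.48, beside 0.01 over all genes tested, and 0.29 with the correction. THBS1 was at 3400 and 3650 CPM in WT and 3350 and 5530 CPM in KD, and FN1 (fibronectin) at 771, 746, 801 and 1050 CPM. DESeq2 called 4 higher in KD. These were COL1A1 (9.68 and 8.68 CPM in WT, 18.3 and 33.1 CPM in KD), COL1A2 (22 and 27.7, then 41.0 and 57.2 CPM), the fibrillar collagen gene COL5A1 (431 and 436, then 674 and 693 CPM) and HSPG2, the perlecan gene (334 and 311, then 427 and 790 CPM). COL1A1 and COL1A2, the chains of type I collagen, were also called by edgeR with the correction, at 0.95 and 1.00. COL5A1 went from 0.66 to 0.22 and HSPG2 from 0.91 to 0.31 with the correction, and neither was called by edgeR there. Of 20 other proteases with a row, 18 were tested, with a median of 0.38, and 0.22 with the correction. PLAU (urokinase) was at 481 and 576 CPM in WT and 377 and 536 CPM in KD, and ADAM10 at 472, 433, 415 and 316 CPM. DESeq2 called ADAM19 higher, at 90.6 and 101 CPM in WT and 197 and 228 CPM in KD (log2 fold change 1.15, and 0.92 with the correction, where edgeR called it too).

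Over the 4 libraries, the genes whose pattern lay closest to that of MMP14 among 8755 other genes with a mean of at least 10 CPM were RPS24, NDUFAF8, WDR1, ABHD12 and TMEM250, at Euclidean distances of 0.025 to 0.0366 on centred log2 CPM. WDR1, for one, was at 792 and 859 CPM in WT and 1100 and 1610 CPM in KD. The length and GC correction left them with log2 fold changes of 0.81 for RPS24, 0.43 for WDR1, 0.28 for ABHD12, 0.20 for TMEM250 and 0.18 for NDUFAF8.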

How the data were processed

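RNA-seq counts (2 libraries per group) and ChIP-seq peaks of WT cells were used, and groups came from the sample labels. The ChIP-seq input and the promoter capture Hi-C samples are not analysed here. The members and gene lists were chosen with earlier results of these data known.

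The deposited counts per gene were made by the authors with STAR 2.5.1 on GRCh38, a mapping quality filter, duplicate removal and htseq-count at default parameters. Without molecular identifiers, duplicate removal lowers abundant genes most in deep libraries, and its effect on these values was not tested. The kit marks strand, and whether strand was used as the kit needs is not given in the sources used here; 7 members overlap a gene on the other strand and 3 (MMP13, MMP14 and MMP15) overlap no other gene. The other deposited values are peak positions in base pairs, called by the authors with normR against input in 3000 bp bins, with scores of 0 throughout.

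Of 23167 identifiers, 23061 matched GENCODE release 44, members included, and the other 106 stayed in the tests. Genes of chromosomes 21, 22 and X were left out (1722), and the rest entered edgeR 4.0.16 under R 4.3.3 (filterByExpr, TMM, quasi-likelihood test, Benjamini-Hochberg adjustment; SEs from its F statistic) and DESeq2 1.42.0. The limits for a call, those of the study, were 0.1 for the adjusted p and 1.5 for the fold. Totals were 9794674 and 7856892 counts in WT and 5584962 and 2309549 in KD, and few counts limit the precision of the low members. The correction removed lowess trends (span 0.3) of each library's log2 CPM on exon length and GC content. Replicates differed by more than sampling noise (chi-square per degree of freedom 3.06 for WT and 22.1 for KD). A peak was common when it shared at least 1 bp with an mH2A1 peak. Promoters are RefSeq sequences, and those of MMP1, MMP2, MMP3, MMP9, MMP13, MMP16 and TIMP2 were not analysed here. Named genes are the members, MACROH2A1, for each list the genes called by edgeR or else the 2 with the highest mean CPM, and the 5 genes nearest to MMP14 over the libraries. The values of 1 gene that this rule names are not reported here. Intervals and scripts used scipy 1.17.1 in Python 3.11.15.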

Additional observations from a re-analysis of the deposited data

How the results depend on the processing

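MMP14 was above 0 under all 13 alternatives. It was called with DESeq2 (0.74, and 0.72 with all chromosomes and no filter on low counts) and in edgeR with no such filter (0.71). Its log2 fold change ranged from 0.43 to 0.99 when 1 library was left out. The range of its edgeR or DESeq2 adjusted p was 2.52e-22 to 0.98, the lowest without KD replicate 1 and the highest without WT replicate 1. Fits that leave 1 library in a group assume that it varies like the other group.

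The count of genes called was 0 with all chromosomes and with RLE size factors, 928 with DESeq2, 945 with DESeq2 and all chromosomes, 2139 with no filter, 589 with the length and GC correction (237 higher and 352 lower), 439 with that correction in DESeq2, and from 2 to 4744 when 1 library was left out. In fits with every library, 1 member, MMP14, was called with DESeq2, in DESeq2 with all chromosomes and no filter, and in edgeR with no filter. Without KD replicate 1, a fit with a single KD library, the log2 fold change was 0.7 for MMP15 and 0.85 for MMP24. Listed genes called were 8 with DESeq2 and 7 with the correction. The cause of these changes was not tested.

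With the replicate number as a replicate block, 2208 genes were called, 875 with the length and GC correction as well, and 1 member, MMP14 (0.71, adjusted p = 0.04), which was not called once the correction was added (0.30, adjusted p = 0.108). The correction also ended the MMP14 call of DESeq2 (0.30, adjusted p = 0.197). The samples share only a number, with 2 pairs and a correlation of 0.224 between the deviations of same-numbered libraries.

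Signs reversed under the length and GC correction in edgeR, DESeq2 and edgeR with the replicate block for MMP15 (-0.11, -0.11 and -0.10), MMP24 (-0.02, -0.0028 and -0.01), MMP16 (0.23, 0.24 and 0.23) and TIMP2 (-0.28, -0.28 and -0.30). Leaving out 1 library moved MMP1 from -0.06 to 0.38 (-0.00058 without KD replicate 1) and TIMP2 from -0.02 to 0.08. The number of members with an mH2A1.1 peak at the TSS was 3 with common peaks, beside 23.8% of annotated genes. It was also 3 with peaks wider than 3000 bp, beside 28.4%, and both settings left out MMP14. With 1000 bp on each side it was 5, beside 39.7% of annotated genes. With any overlap with the gene it was 6, beside 59.9%. MMP1, MMP15, MMP16 and MMP24 had 18 to 25 counts in KD replicate 2, and the part of depth in their results was not tested.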

Other observations

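The protein-coding genes within 100 kb of MMP14 were looked at after its values were seen. Of 8 such genes, 7 were tested and 6 had an mH2A1.1 peak at the TSS, beside 37.8% of annotated genes and 46.9% of genes tested. These are not 6 separate peaks, as 1 peak of 27000 bp covered the starts of both LRP10 and REM2, the gene not tested. LRP10, the next gene downstream and a lipoprotein receptor relative, was at 237 and 253 CPM in WT and 316 and 463 CPM in KD (log2 fold change 0.66, edgeR adjusted p = 0.194; 0.28 with the length and GC correction), and DESeq2 called it (adjusted p = 0.099). HAUS4, further downstream, was at 7.05 and 8.28 CPM in WT and 5.48 and 3.31 CPM in KD (-0.69, edgeR adjusted p = 0.238; -0.82 with the correction). MRPL52, whose gene ends just upstream of MMP14, was at 26.6, 28.3, 30.4 and 40.6 CPM (0.35, edgeR adjusted p = 0.341), and OXA1L at 82.3, 87.2, 83.7 and 92.6 CPM (0.05, edgeR adjusted p = 0.86). The remaining tested neighbours, SLC7A7, RBM23 and PRMT5, had log2 fold changes of 0.13, 0.11 and 0.31, and neither tool called them.

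MMP1, MMP3 and MMP13 lie in a cluster of 9 MMP genes on chromosome 11 (102520508 to 102955732, 435 kb), of which MMP1 was the only gene above 9 counts in any library. MMP10, MMP12, MMP20 and MMP27 were at 0 in all 4 libraries, and MMP8, the neutrophil collagenase, had 9 and 7 counts in WT and 2 and 0 in KD. The cluster held 7 mH2A1.1 peaks, which covered 7.58% of it, and 8 mH2A1 peaks, which covered 8.96%, beside 9.40% and 7.87% of the genome.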
